A study of Mus musculus with 6 samples.

Results

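The genes described here are heat shock factor 1 (Hsf1) and 9 chaperone genes, Hspa8, Hspa1a, Hspa1b, Hsp90aa1, Hsp90ab1, Hspd1, Hspe1, Hsph1 and Dnajb1. They were chosen by symbol and not by a rule on their values, although earlier results of these data were known. All 10 were found among the 23412 gene rows of the series. RNA-seq had been carried out on undifferentiated mouse embryonic stem cells (mESCs) of strain 129Sv, from the wild type line R1 and the Htt-/- line HN, which lacks huntingtin. There were 3 libraries per line and 6 in all, and neither line received a treatment beyond its culture medium. Cells were kept without feeders on gelatin, with leukemia inhibitory factor and inhibitors of the FGF receptor, MEK and GSK3, so the medium was shared by both lines. Each genotype is represented by a single cell line, so the loss of Htt and any other difference between R1 and HN cannot be told apart. Both lines were collected on 17 February, 20 February and 2 March (replicates 1, 2 and 3), and libraries of the same date form a pair.

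HSF1 is the transcription factor of the heat shock response. In unstressed cells it is held inactive, in part by chaperones, and when unfolded proteins accumulate it forms trimers that bind heat shock elements and raise the transcription of chaperone genes. HSP70 proteins bind exposed stretches of unfolded clients with the help of J-domain proteins, which deliver clients and stimulate ATP hydrolysis, and of nucleotide exchange factors, which release them. HSP90 proteins act later on clients such as kinases and receptors, and HSP60 with HSP10 forms the folding chamber of mitochondria. Chaperones of these families have been studied for their action on polyglutamine proteins such as expanded huntingtin.

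Between 1640391 and 3866717 reads per library had been counted on genes, and the libraries of 20 February were the deepest in both lines. Values are normalized counts, which are gene counts divided by a size factor of the library. The libraries of 2 March showed reads on 20675 and 20542 genes, against 18133 to 19083 genes for the other libraries. Htt was at 230, 257 and 199 normalized counts in R1 and at 18.3, 58.1 and 54.2 in HN, in the direction that the labels give. The 8 markers of mESCs (Pou5f1, Nanog, Sox2, Zfp42, Esrrb, Klf4, Tdgf1 and Dppa5a) were all expressed, with a summed level of 12129 to 17914 in R1 and 12845 to 17304 in HN. When libraries were paired by date, 5 of the 8 differed between the lines (adjusted p under 0.05 in limma with the block), against 9.48% of all genes tested. Zfp42 was lower in HN, and Nanog, Esrrb, Klf4 and Dppa5a were higher, although the lines overlapped for Esrrb and Dppa5a. The summed level of 6 fibroblast markers was 38.5 to 99.7 in R1 and 12.1 to 65.0 in HN, with Dcn and Lum below a mean of 5, and Thy1 was lower in HN with this pairing (adjusted p = 0.00112 in limma with the block). That of 6 primitive endoderm markers was 36.2 to 159 and 38.3 to 142, that of 3 neuroectoderm markers 38.5 to 116 and 62.4 to 117, and that of 4 mesoderm markers 77.7 to 161 and 129 to 245, in the same order. Of the mesoderm markers, T (adjusted p = 0.00100) and Eomes (8.57e-05) were higher in HN with the block in limma, and the lines overlapped for both. Mixl1 did not pass, and its direction differed between dates. Mesp1 was too low for the test, with a mean of 5.79 in R1 and 2.41 in HN. Without pairing, none of the markers of these cell types passed in limma, and the smallest adjusted p was 0.195 (Zfp42). The part of these markers in the results was not tested. In such bulk samples, more cells of a state and more RNA per cell cannot be told apart.

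The sequences that bear on these genes are the heat shock elements near their start sites, because these are the sites that HSF1 binds, and the promoters of the Hspa1a and Hspa1b pair, because the near identity of these genes limits what their reads can show. A heat shock element was searched as 3 alternating units, GAANNTTCNNGAA or TTCNNGAANNTTC (the same element read on the other strand), where N is any base. RefSeq windows on GRCm38, from 250 bases before to 50 bases after a start site, were at hand for 6 members (Hspd1, Hspe1, Hsph1, Dnajb1, Hspa1a and Hspa1b; 9 windows). The element was found in windows of 3 of these members, Hspd1, Hspe1 and Hsph1, and in 0.603% of all 32851 windows. In the sequences of Hspe1 and Hsph1 below, the capitals mark the stretch covered by the matches.
Hspe1: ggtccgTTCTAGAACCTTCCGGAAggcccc
Hsph1: gctgcagaTTCTGGAAAGTTCtcctcagt

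The Hspe1 sequence lies at chr1:55088053-55088082 on the plus strand (GRCm38), and the first base of its element is 89 bases before the Hspe1 start. Hspd1 and Hspe1 are neighbours on opposite strands of chromosome 1, and the same bases lie 144 bases before the start of 1 of the 2 Hspd1 windows. This single stretch holds 2 overlapping matches and therefore stands in windows of both genes. The Hsph1 sequence lies at chr5:149636280-149636308 on the minus strand, downstream of the start site, with its element beginning at base 16 or base 37 of the transcript for the 2 annotated starts. Neither window of Dnajb1 and neither window of the Hspa1 pair held the element in these letters. A shorter form of 2 units, GAANNTTC or TTCNNGAA, which is contained in the longer one, was present in windows of 5 of the 6 members and in 15.1% of all windows. A match is a description of the sequence and not evidence of binding.

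In the 250 bases before their start sites, Hspa1a (chr17:34972157-34972406) and Hspa1b (chr17:34959239-34959488), both on the minus strand, differed at 3 positions, which are in capitals.
Hspa1a: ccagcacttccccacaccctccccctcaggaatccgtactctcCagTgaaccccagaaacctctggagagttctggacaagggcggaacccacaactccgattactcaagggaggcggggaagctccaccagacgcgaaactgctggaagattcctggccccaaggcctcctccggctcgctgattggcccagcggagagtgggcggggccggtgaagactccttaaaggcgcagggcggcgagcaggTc
Hspa1b: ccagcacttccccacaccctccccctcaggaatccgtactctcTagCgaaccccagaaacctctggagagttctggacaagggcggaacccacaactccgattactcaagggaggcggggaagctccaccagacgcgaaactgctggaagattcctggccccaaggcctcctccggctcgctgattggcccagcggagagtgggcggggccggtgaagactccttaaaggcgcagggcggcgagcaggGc

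Levels of the members spanned more than 3 orders of magnitude. Per kilobase of exon, the mean normalized count in R1 was highest for Hsp90ab1 (2943), followed by Hsp90aa1 (1872), Hspa8 (1324), Hspd1 (654), Hspe1 (607), Dnajb1 (90.8), Hsph1 (23.4), Hsf1 (13.7), Hspa1b (3.62) and Hspa1a (1.18). The order in HN was the same, with 3104, 2034, 1881, 636, 543, 59.6, 36.1, 14.7, 3.62 and 1.40. Among neighbours in this order, Hspd1 (526 to 813 per kilobase) and Hspe1 (590 to 622) overlapped between libraries of R1, and the other neighbours did not. In HN, Hspa8 (1813 to 1949) overlapped with Hsp90aa1 (1767 to 2257), Dnajb1 (45.6 to 84.5) with Hsph1 (27.0 to 52.0), Hspa1b with Hspa1a, and Hspd1 (528 to 782) with Hspe1 (499 to 569). Hspa8, Hsp90aa1 and Hsp90ab1 together held between 86.2% and 90.8% of the members' reads.

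Of the 10 members, 9 reached the mean of 5 normalized counts needed for the test, and Hspa1a did not. Compared without regard to date, 0 of the 9 passed a Benjamini-Hochberg adjusted p of 0.05 in limma, as did 0.245% of the 14276 genes tested, and 1 member, Hspa8, had an unadjusted p under 0.05 (0.0193). DESeq2 on the recovered reads passed Hspa8 alone (adjusted p = 0.0181) and edgeR passed 0 members. When libraries of the same date were paired (the date as a block in limma), Hspa8 and Hsph1 were higher in HN and Dnajb1 was lower. Among all genes tested, 5.46% were higher and 4.02% were lower in this comparison. No member had both a passing p and an absolute log2 fold change above 1, as 1.95% of all genes did. The same 3 members passed in the same directions with edgeR and DESeq2 with this block, and when both libraries of any 1 date were left out. In limma with the block the variance came mostly from all genes tested, and more so when a date was left out. Other pseudocounts, filters and scalings, and a fit without the variance trend, were not tried with the block.

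**Figure D1:**
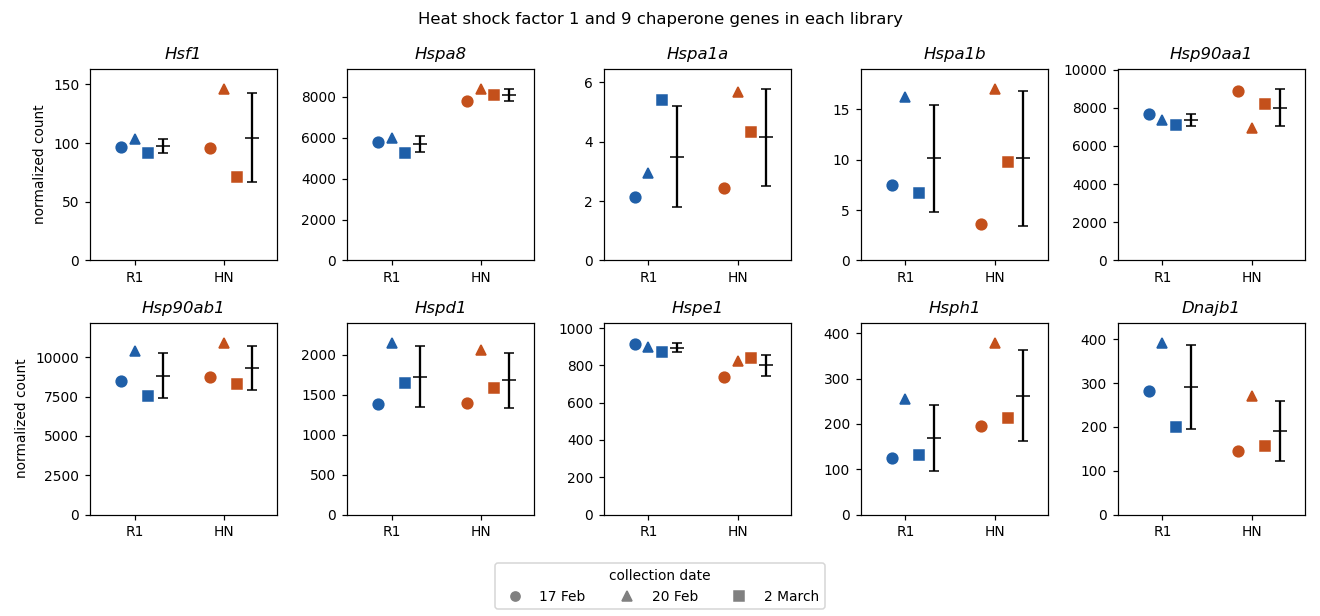
Normalized count of each member in each library, on a linear axis from 0 that differs between panels; R1 in blue, HN in orange, marker shape for the collection date, and the bar for mean ± SD (n = 3). Hspa8 and Hspe1 are the members whose lines do not overlap, and 7 members (Hsf1, Hspa8, Hspa1b, Hsp90ab1, Hspd1, Hsph1 and Dnajb1) stand highest on 20 February in both lines.

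Hsf1 (chromosome 15, 76477422 to 76501913, plus strand) was at 96.9, 104 and 91.7 normalized counts in R1 and at 96.1, 146 and 71.5 in HN for the dates in order. The HN libraries lay on both sides of the R1 libraries. The log2 fold change, here and below HN over R1 on the log2(normalized count + 1) scale, was 0.04 (SE 0.27, adjusted p = 0.99998 in limma). With the date as a block its 95% interval ran from -0.28 to 0.37 (adjusted p = 0.932), so the values do not exclude changes of the transcript within these bounds. Activity of HSF1 depends largely on its protein state, which RNA levels do not measure.

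Hspa8 (chromosome 9, 40800984 to 40810087, plus strand) encodes HSC70, the constitutive cytosolic HSP70, which also serves in clathrin uncoating and in chaperone-mediated autophagy. It was at 5819, 6013 and 5257 in R1 and at 7797, 8383 and 8093 in HN. All 3 HN libraries were above all 3 R1 libraries, which was so, in either direction, for 10.8% of all genes tested, and for 2 of the 9 members. The means were 5696 ± 393 and 8091 ± 293 (SD, n = 3), a ratio of 1.42, and the log2 fold change was 0.51 (SE 0.19, adjusted p = 0.658 in limma). An exact two-sided permutation test of 3 against 3 libraries gave p = 0.1, the smallest it can give. The log2 difference was 0.42, 0.48 and 0.62 on the 3 dates, and the paired 95% interval was 0.33 to 0.68 (adjusted p = 7.32e-05 in limma with the block). Of the 50-base stretches of its transcripts, 39.4% also occur in transcripts of 16 other genes, chiefly Gm15459 and Gm26825, so its value is uncertain as far as shared alignments were counted or dropped.

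The inducible HSP70 genes Hspa1a and Hspa1b are single-exon neighbours on chromosome 17 (34969190 to 34972156 and 34956436 to 34959238, both minus strand) and are among the most strongly induced genes of a heat shock. Hspa1a had 2, 4 and 4 reads in R1 and 2, 8 and 4 reads in HN, and 4 of the 6 libraries had more than 3 reads, the number taken as the detection limit. Hspa1b had 7, 22 and 5 reads in R1 and 3, 24 and 9 reads in HN, or 7.45, 16.3 and 6.74 against 3.65, 17.0 and 9.75 normalized counts. Both genes were thus close to the detection limit in both lines, and their libraries overlapped. The log2 fold change of Hspa1b was -0.11 (SE 0.66), with a paired 95% interval of -1.01 to 0.79 (adjusted p = 0.935 in limma with the block). Since 66.3% of the 50-base stretches of Hspa1a and 62.3% of those of Hspa1b occur in other genes, chiefly in each other, the split of reads between them is uncertain. Their sum was 9.58, 19.2 and 12.1 in R1 and 6.08, 22.7 and 14.1 in HN, which gave an exact two-sided permutation p of 1.0.

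Hsph1 (chromosome 5, 149614287 to 149636376, minus strand) encodes HSP105, a member of the HSP110 family that acts as a nucleotide exchange factor for HSP70. It was at 125, 254 and 131 in R1 and at 196, 378 and 213 in HN. The lines overlapped, because the R1 library of 20 February was above the HN libraries of the other dates, but HN was the higher on each date. The means were 170 ± 72.9 and 262 ± 100.4 (SD, n = 3), a ratio of 1.55, and the log2 fold change was 0.64 (SE 0.32, adjusted p = 0.924 in limma). Within dates the log2 difference was 0.65, 0.57 and 0.70, with a 95% interval of 0.40 to 0.88 (adjusted p = 2.90e-04 in limma with the block). None of its 50-base stretches occur in transcripts of another gene (0 of 7500). Without pairing, its log2 fold change was 0.97 without the R1 library of 20 February and 0.35 without the HN library of that date. It is the member with a heat shock element just downstream of the start, shown above.

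Dnajb1 (chromosome 8, 83608193 to 83612653, plus strand) encodes the J-domain protein HSP40, a partner of HSP70 that is itself heat-inducible. It was at 282, 391 and 199 in R1 and at 146, 271 and 156 in HN. The HN library of 20 February lay within the range of R1, and HN was the lower on each date. The means were 291 ± 96.2 and 191 ± 69.3 (SD, n = 3), a ratio of 0.656, and the log2 fold change was -0.61 (SE 0.29, adjusted p = 0.901 in limma). The log2 difference was -0.95, -0.53 and -0.35 on the 3 dates, and without pairing it was -0.37 when the R1 library of 20 February was left out. The paired 95% interval was -0.86 to -0.36 (adjusted p = 7.54e-04 in limma with the block). That interval uses a variance drawn mostly from all genes tested, so it does not measure the spread of the 3 date differences. Those 3 differences were not tested on their own variance. Of its 50-base stretches, 0.412% are shared with other genes.

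**Figure D2:**
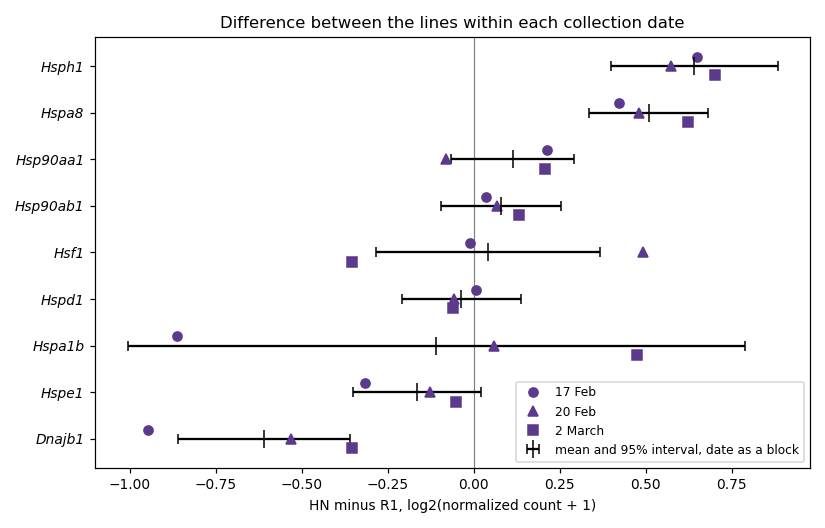
Difference between HN and R1 within each collection date for the 9 members tested, on the log2(normalized count + 1) scale; symbols are the 3 dates, and bars are the mean and 95% interval with the date as a block (n = 3 pairs). Intervals of Hsph1 (0.40 to 0.88), Hspa8 (0.33 to 0.68) and Dnajb1 (-0.86 to -0.36) do not include 0. The intervals use a variance that limma draws mostly from all genes tested, so they do not measure the spread of the plotted symbols. The SE with the block was thus nearly the same for Hspa8 (0.0855), Hsp90ab1 (0.0855) and Hspd1 (0.0852).

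Hsph1 and Dnajb1 thus moved in opposite directions between the lines, while both were highest on the same date. Their ratio, chosen for description after the values of both genes had been seen, was 0.442, 0.648 and 0.655 in R1 and 1.34, 1.40 and 1.37 in HN. The HN values were close to each other, those of R1 were lower on 17 February than on the other dates, and the lines did not overlap. The log2 difference of the ratio was 1.26 (exact two-sided permutation p = 0.1, the smallest possible; 0.2 after Benjamini-Hochberg adjustment over the 6 quantities compared in this way), and it stayed between 1.07 and 1.35 when any 1 library was left out. Because Hsph1 is the longer gene, the ratio compares libraries and not the levels of both genes. The ratio of Hspa8 to Hsp90ab1, likewise chosen after the values were seen, was 0.683, 0.579 and 0.695 in R1 and 0.892, 0.769 and 0.976 in HN (exact permutation p = 0.1). The share of all reads held by the 10 members was 0.961% to 1.03% in R1 and 1.09% to 1.17% in HN (exact permutation p = 0.1). This share includes Hspa8, which is abundant and was higher in HN, and it was not tested without Hspa8. The median log2 fold change of the members tested was 0.04, so the share does not describe the members as a set.

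**Figure D3:**
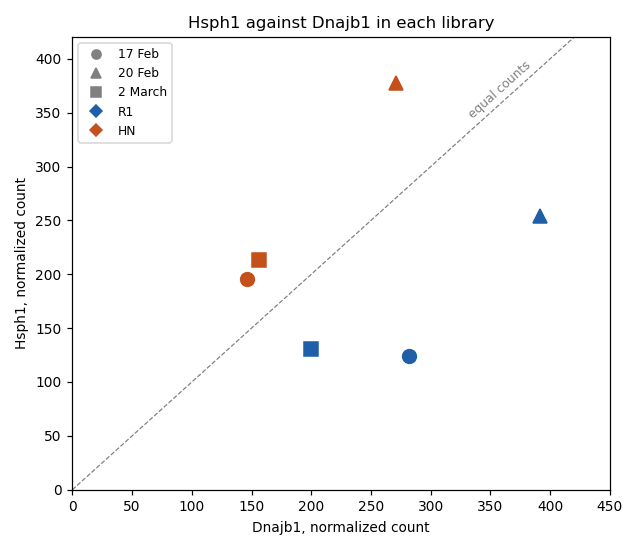
Normalized count of Hsph1 (vertical) against Dnajb1 (horizontal) in each of the 6 libraries, on linear axes, with line by colour and date by symbol; the dashed line marks equal counts. The 3 HN libraries lie above the dashed line (ratios of 1.34 to 1.40) and the 3 R1 libraries below it (0.442 to 0.655).

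The cytosolic HSP90 genes differed little between the lines. Hsp90aa1 (chromosome 12, 110690605 to 110702728, minus strand), which encodes the stress-inducible HSP90 alpha, was at 7660.5, 7344 and 7075 in R1 and at 8873, 6944 and 8175 in HN. The HN library of 20 February was the lowest of the 6 and the other HN libraries were the highest. Its log2 fold change was 0.11, with a paired 95% interval of -0.07 to 0.29 (adjusted p = 0.510 in limma with the block), and 47.5% of its 50-base stretches occur in other genes. Hsp90ab1 (chromosome 17, 45567775 to 45573271, minus strand), which encodes the constitutive HSP90 beta, was at 8523, 10394 and 7561 in R1 and at 8742, 10895 and 8291 in HN. HN was the higher on each date by 0.04, 0.07 and 0.13 on the log2 scale, and the paired 95% interval was -0.09 to 0.25 (adjusted p = 0.669 in limma with the block). The ratio of Hsp90ab1 to Hsp90aa1 was 1.07 to 1.42 in R1 and 0.985 to 1.57 in HN, so the lines overlapped (exact permutation p = 0.9).

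The mitochondrial pair Hspd1 (HSP60) and Hspe1 (HSP10) are transcribed away from each other from chromosome 1 (55077835 to 55088243, minus strand, and 55088132 to 55091307, plus strand). Hspd1 was at 1389, 2147 and 1647 in R1 and at 1396, 2065 and 1581 in HN. Libraries of the same date were close to each other, with differences of 0.01, -0.06 and -0.06 on the log2 scale, and the paired 95% interval was -0.21 to 0.14 (adjusted p = 0.872 in limma with the block). Hspe1 was at 917, 899.6 and 869 in R1 and at 736, 824 and 839 in HN. All HN libraries were below all R1 libraries (exact permutation p = 0.1), but the log2 difference of -0.16 missed the threshold without and with pairing (adjusted p = 0.99998 and 0.311 in limma; paired 95% interval -0.35 to 0.02). The pair did not follow the same course over dates, since Hspd1 was highest on 20 February in both lines and Hspe1 in neither. The genes overlap at their starts, and 42.1% of the stretches of Hspd1 and 22.8% of those of Hspe1 are shared with other genes, mainly an Hspd1 pseudogene and a further locus.

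Differences between collection dates were about as frequent among the members as among all genes tested. Of the 9 members tested, 5 differed between dates (limma F test with the line as a term, adjusted p under 0.05), against 46.0% of all genes tested. These were Hsph1 (adjusted p = 3.63e-06), Dnajb1 (5.61e-05), Hspd1 (1.25e-04), Hsp90ab1 (0.00398) and Hsf1 (0.0380). The count was 3 after median centring and 0 without the variance trend. In 7 of the 9 members the library of 20 February was the highest of its line in both R1 and HN, against 27.1% of all genes tested, and the exceptions were Hsp90aa1 and Hspe1. The libraries of 20 February were also the deepest, and the part of depth in this pattern was not tested. With the reads scaled in other ways 5 or 6 of the 9 members had the pattern, where between 20.6% and 25.4% of all genes had it.

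Hsph1 rose from 125 and 131 on the other dates to 254 in R1, and from 196 and 213 to 378 in HN. On 2 March more genes were detected, and 4 of the 9 members were lower than the mean of the earlier dates. These were Dnajb1, Hsph1, Hsp90ab1 and Hsf1, and 0 members were higher. In this contrast 40.9% of all genes tested differed. Hsph1 was still higher on 2 March than on 17 February in R1 (131 against 125) and in HN (213 against 196). Dnajb1 was higher than on 17 February in HN (156 against 146) and lower in R1 (199 against 282). Hsp90ab1 and Hsf1 were lower than on 17 February in both lines. The log2 difference from the mean of the earlier dates was -0.54 for Dnajb1 (adjusted p = 0.00157 in limma) and -0.40 for Hsph1 (0.0132). It was -0.28 for Hsp90ab1 (0.0158) and -0.42 for Hsf1 (0.0447), and the median over all genes tested was -0.07. With median centring Dnajb1 was the member that passed, and with quantile normalization none of these 4 did, while Hspe1 did. Hsf1 also lost this call with edgeR, with a pseudocount of 0.1 and with no filter.

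**Figure D4:**
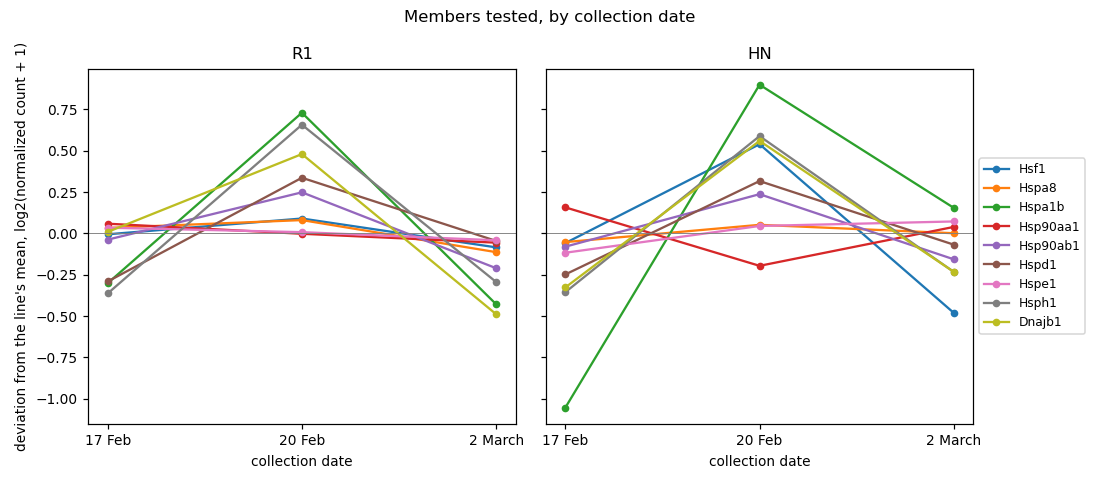
Deviation of each of the 9 tested members from the mean of its line, on the log2(normalized count + 1) scale, by collection date, with R1 on the left and HN on the right; each line of the plot is 1 gene with 1 library per date. In both panels 7 genes peak on 20 February, while Hspe1 stays near 0 and Hsp90aa1 is lowest on that date in HN.

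The course of the members over the 6 libraries was summarised as the mean of their standardized log2 values, which was 0.59 and 0.78 on 20 February and between -0.59 and -0.16 in the other libraries. The genes outside the chaperone lists whose values were most like it were Mrps18a (Pearson r = 0.997 over 6 libraries), D10Wsu102e (0.995), Mest (0.994), Wdr77 (0.994) and Ecd (0.994). These points share depth and date, and with 6 libraries and 14276 genes some high values arise from the choice alone, so they are given as a description. Between single members the correlation over the 6 libraries ran from -0.70 (Hspa1b with Hsp90aa1) to 0.89 (Hspa1b with Hspd1). Hspa8 and Hsph1, which were both higher in HN, had r = 0.71, and Hsph1 and Dnajb1 had r = 0.23.

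The remaining chaperone network was described by lists of 128 other genes, of which 118 were tested. Without pairing, 0 of the 118 passed in limma (6 had an unadjusted p under 0.05). DESeq2 on recovered reads passed 2 (Hspb8 and Dnajc3) and edgeR 0. With the date as a block 4 were higher in HN and 6 were lower, or 8.47% against 9.48% of all genes tested. The median log2 fold change of the list was -0.05, that of the members was 0.04 and that of all genes tested was -0.01. The share called was thus no larger in the network than among all genes.

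Among the genes higher in HN with the block, the small heat shock protein Hspb8, which works with BAG3 in the selective autophagy of misfolded proteins, showed the smallest p of the list. It was at 216, 85.8 and 113 in R1 and at 537, 309.8 and 315 in HN, and its lines did not overlap (log2 fold change 1.54, adjusted p = 1.64e-11 in limma with the block and 0.136 without it). Dnajc3, a J-domain protein of the endoplasmic reticulum that inhibits eIF2 alpha kinases, was at 109.6, 107 and 117 in R1 and at 234, 191 and 177 in HN (log2 fold change 0.83, adjusted p = 3.57e-05 with the block). Clpp, the proteolytic subunit of the mitochondrial ClpXP protease, was at 76.6, 127 and 68.7 in R1 and at 131, 254 and 139.7 in HN (0.93, adjusted p = 1.38e-05 with the block). For Hspb8, Dnajc3 and Clpp all HN libraries were above all R1 libraries.

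The genes lower in HN with the block came from different parts of the network. Hscb, a J-domain protein of iron-sulphur cluster assembly, had a log2 fold change of -0.87, and so did Serpinh1, the collagen chaperone HSP47 of the endoplasmic reticulum (adjusted p = 0.00767 and 0.00268). The decreases were smaller for Pfdn4 (-0.41), a prefoldin subunit, Bag1 (-0.40), a nucleotide exchange factor, Cct7 (-0.34), a subunit of the cytosolic chaperonin CCT, and Hspa14 (-0.31), a ribosome-associated HSP70. Their adjusted p in limma with the block was between 0.0122 and 0.0468. With DESeq2 and the block Cct7 alone of these 6 passed (adjusted p = 0.0194), and Serpinh1 (0.0574), Bag1 (0.0952), Hscb (0.151), Hspa14 (0.168) and Pfdn4 (0.278) did not. In limma with the block but without the libraries of 17 February 0 of the 6 passed, and the log2 fold change of Hspa14 was then -0.15. Serpinh1 differed by -1.55, -0.57 and -0.48 on the 3 dates, and without the R1 library of 17 February its log2 fold change was -0.44.

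**Figure D5:**
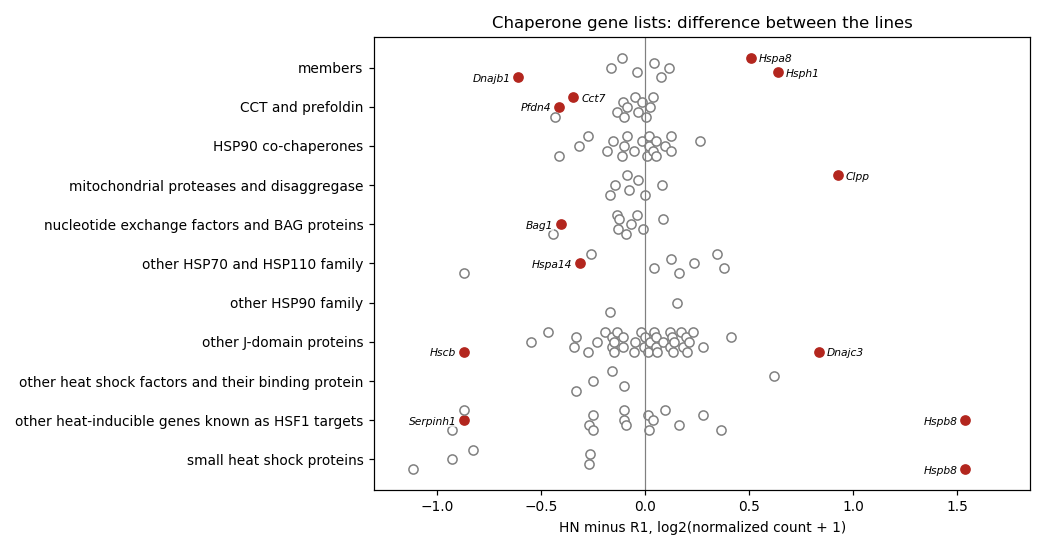
Difference between HN and R1 on the log2(normalized count + 1) scale for tested genes of the members and of 10 chaperone lists (rows; some genes stand in more than 1 list); each circle is 1 gene, and filled circles are genes with an adjusted p under 0.05 in limma with the date as a block. Of the members 3 are filled, and Hspb8 (1.54) lies farthest to the right.

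By role, the lists gave at most 3 calls each with the date as a block, where 9.48% of all genes tested passed. The share was 16.7% for the HSF1 targets and for the small heat shock proteins, and 15.4% for CCT and prefoldin. It was 12.5% for the mitochondrial proteases, 11.1% for other HSP70 genes, 10% for nucleotide exchange factors and 4.88% for J-domain genes. The other lists gave 0. These lists are small, so 1 call weighs much in them. Of 18 other genes known as heat-inducible targets of HSF1, 2 were higher, among them Hspb8, and 1 was lower (Serpinh1), and the median log2 fold change was -0.04. The most abundant of them was Hspa4, an HSP110 relative of Hsph1, at 2557, 3336 and 3388 in R1 and 2868, 3894 and 3647 in HN (log2 fold change 0.16, adjusted p = 0.253 with the block). Of the 20 HSP90 co-chaperones 0 passed in limma with the block (3 had an unadjusted p under 0.05), while edgeR with the block passed 1 and DESeq2 with the block 0. Their most abundant gene Stip1, which links HSP70 to HSP90, had a log2 fold change of 0.04. Of these 20, 16 were highest on 20 February in both lines, against 27.1% of all genes tested, and this count was not repeated under other scalings.

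Of the 5 tested genes among the other heat shock factors and their binding protein 0 passed with the block in limma, edgeR or DESeq2 (0 at an unadjusted p under 0.05 in limma), and Hsbp1, whose product binds HSF1 trimers, was at 413, 385 and 218 in R1 and at 332, 296 and 255 in HN. In the endoplasmic reticulum and mitochondria, the HSP90 relatives Hsp90b1 (log2 fold change 0.15) and Trap1 (-0.17) did not pass (limma with the block). Of 41 J-domain genes 1 was higher (Dnajc3) and 1 lower (Hscb), and the most abundant, Dnajc8, had a log2 fold change of 0.02. Of 13 CCT and prefoldin genes 2 were lower (Cct7 and Pfdn4), while the most abundant, Cct2, had a log2 fold change of 0.01. The mitochondrial proteases gave 1 call of 8 (Clpp), and their most abundant gene Yme1l1 had -0.09. The small heat shock proteins gave 1 of 6 (Hspb8), and the most abundant, Hspb1, had -0.27 (adjusted p = 0.0804 with the block).

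Genes of the immediate early and handling response, which can rise when cells are disturbed during collection, were examined beside the members. Of 12 tested, 1 was higher in HN with the block (Dusp1, at 244, 155 and 98.4 in R1 and 349, 161 and 161 in HN), as were 5.46% of all genes tested. The lines overlapped for Dusp1, and without the block it did not pass (adjusted p = 0.99998 in limma). Between dates 8 of the 12 differed, against 46.0% of all genes tested. DESeq2 with the block and limma with the block but without 17 February passed 0 of them. On 20 February 2 were highest in both lines, against 27.1% of all genes. Their part in the members' values was not tested. Of the 5 tested genes neighbouring the Hspa1 pair on chromosome 17, 0 passed between the lines with the block in limma, edgeR or DESeq2 (1 at an unadjusted p under 0.05 in limma), and the most abundant, Ehmt2, had a log2 fold change of -0.11.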

How the data were processed

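RNA came from 3 batches, each holding both lines and having its own collection date, and TruSeq libraries were sequenced from both ends. The authors used STAR for alignment (build mm10, or GRCm38), Picard to drop PCR duplicates, HTSeq for exon counts per gene and DESeq2 for normalization. Versions, annotation, strand and multi-mapping settings are not given in the sources used here. What the authors deposited is a normalized signal (gene count over size factor). Dividing by the smallest step of each library gave whole reads for 100% of values (tolerance 0.0001). Names of 27 rows had been turned into dates, and these rows are not named.

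Lines were compared with limma 3.58.1 (R 4.3.3) on log2(normalized count + 1) with a variance trend, over 14276 genes with a mean of at least 5, two-sided, with Benjamini-Hochberg adjustment over all of them. No block was used for the main comparison, as the study describes none. Replicate numbers mark shared collection dates in the labels, and deviations of same-date libraries correlated (r = 0.25, 0.69 and 0.77), although R1 replicate 1 correlated more with HN replicate 2 (r = 0.34). The pairing rests on the dates, and paired values are given beside the unpaired ones. edgeR 4.0.16 and DESeq2 1.42.0 on recovered reads, other pseudocounts, filters and scalings, and leaving out each library were alternatives. The tests were tried on simulated data. Replicates differed by more than sampling noise (chi-square per degree of freedom 5.11 to 10.2). Reads without molecular identifiers are not independent molecules, and limits of 3 reads cover counting error only.

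The members and lists were chosen with earlier results of these data known. Named are all members, genes of each list that passed without or with the block (at most 4 per list), the most abundant gene of each list, and the 5 genes most like the members in pattern. Trap1 was named after its value was seen. A gene of the wider lists, counted in their totals, is not reported here. Positions and exon lengths come from GENCODE M21, and shared stretches of 50 bases were counted over its transcripts on both strands. Promoter windows are from RefSeq (GRCm38).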

Additional observations from a re-analysis of the deposited data

How the results depend on the processing

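Without a block 0 members passed in either direction with limma, and this held for edgeR, both pseudocounts, both filters, both scalings, no variance trend and each library left out, while DESeq2 passed 1 higher. With the replicate block 2 members were higher and 1 lower in limma, edgeR and DESeq2, and with limma when both libraries of date 1, 2 or 3 were left out, an alternative chosen after seeing the data. The pseudocounts, filters, scalings and variance trend were varied without the block only, so the paired calls were not tried under them. Without the block, 35 of all genes tested passed in the main fit and 0 without the variance trend. The wider list gave 4 higher and 6 lower with the replicate block in limma, 4 and 8 in edgeR, and 3 and 1 in DESeq2. Without a block it gave 2 higher in DESeq2 and 1 without a filter. With the block it gave 4 and 0 without date 1, 3 and 1 without date 2, and 4 and 10 without date 3. Members that differed between dates (5) numbered 3 with median centring and 0 without the variance trend, and 3 to 7 when a library was left out (3 without the HN library of 20 February). Members that differed on the third date (4) numbered 1 with median centring, 1 with quantile normalization and 0 without the trend, 3 with edgeR, a pseudocount of 0.1 and no filter (without Hsf1), and 1 to 4 when a library was left out (2 without the R1 library of 20 February, 2 without that of 2 March and 1 without the HN library of 20 February). The cause was not tested.

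Log2 fold changes of Hspa8 (0.30 to 0.55), Hsph1 (0.35 to 0.97) and Dnajb1 (-0.89 to -0.37) kept their direction under the 21 alternatives. Directions turned for members that passed in no comparison of the lines. Hspa1b was 0.0011 with edgeR and 0.27 with the replicate block without date 1, and ran from -0.56 to 0.42 when a library was left out. Hsp90ab1 was -0.063 with quantile normalization and ran from -0.039 to 0.20. Hsf1 was -0.18 with the block without date 2 and ran from -0.23 to 0.28, and Hspd1 ran from -0.19 to 0.13. At 1640391 to 3866717 reads per library, Hspa1a and Hspa1b were too sparse to show any but a large change.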
